A study of Mus musculus with 12 samples.

Results

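The genes described here are those that bring T cells into lymph nodes, hold them there or let them leave. The set of 8 was chosen by gene symbol from a list made for this purpose with earlier results of these data known. It holds *Ccr7*, *S1pr1*, *S1pr4*, *S1pr5*, *Klf2*, *Cd69*, *Selplg* and *Cd44*. All 8 were among the 25860 genes of the RNA-seq table, and 29 of the 23932 peaks of the ATAC-seq table carried the name of 1 of them.

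CD8+ progenitor T cells (T_prog_) were sorted from pancreatic lymph nodes of nonobese diabetic (NOD) mice, a strain in which T cells destroy the pancreatic β cells. All mice carried the NY8.3 T cell receptor transgene, so their CD8+ T cells share a receptor for a β cell antigen. The UTX TCD mice had 2 loxP-flanked *Kdm6a* alleles (*UTX fl/fl*) and an *Lck-Cre* transgene, which deletes the gene in T cell development, and the WT mice carried no Cre. The study describes its NOD WT littermate controls as also *UTX fl/fl*. For each genotype there were 3 libraries of RNA-seq and 3 of ATAC-seq, the latter a measure of open chromatin by transposase insertion. The study's methods describe female mice and Cre-negative littermates as controls, and the age of the sequenced mice is not given in the sources used here. The series description gives the sort gate as Ly108+CXCR6- and the study's methods as Ly108+CD39-. RNA-seq depth was 146456724, 144503203 and 193568919 counted reads in the WT libraries and 61512402, 175462433 and 187275082 in the UTX TCD libraries, so UTX TCD replicate 1 was the shallowest.

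T cells enter lymph nodes from blood with selectins, integrins and the chemokine receptor CCR7, and CCR7 then keeps them in the T cell zone. They leave toward the sphingosine-1-phosphate (S1P) of lymph, which they sense with S1PR1. The transcription factor KLF2 drives *S1pr1* in resting T cells, whereas CD69, a surface protein induced by activation, binds S1PR1 and removes it from the surface.

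The targeted gene was read first as a check of the labels. *Kdm6a* was counted at 28365, 28949 and 29172 normalized counts in WT and at 24158, 24792 and 24579 in UTX TCD libraries. Every UTX TCD library lay below every WT library (log2 fold change -0.23, SE 0.04, adjusted p = 0.00114 from limma). Of all tested genes, 21.5% had a fold change as low or lower, and 51.9% had genotypes that did not overlap. The check of the labels is therefore a weak one. Counts are per gene, so reads over the deleted exons were not examined. The T cell genes were abundant in all 6 libraries, with *Cd8a* between 270012 and 313000 and *Cd3e* between 133010 and 165614 normalized counts. Of the 8 genes of the T cell and gate list, *Cd3e* passed the test as higher (0.17 on the log2 scale) and *Cd3d* (-0.28), *Cd8b1* (-0.37) and *Cxcr6* as lower, while *Cd8a*, *Slamf6*, *Tcf7* and *Entpd1* did not pass. *Cd3e* passed narrowly (adjusted p = 0.0414 from limma), and no longer with TMM scaling (0.0594) or in 5 of 6 fits that left out 1 library (0.0547 to 0.155), the exception being the fit without UTX TCD replicate 3 (0.041), in a range from 0.0128 to 0.155. *Slamf6*, at 0.29, passed without WT replicate 2 (0.43, adjusted p = 0.00923, range to 0.256). *Cd8a*, at 0.13, passed without UTX TCD replicate 3 (adjusted p = 0.0146) and with libraries scaled to the same sum (0.0302), in a range up to 0.385. *Tcf7*, the transcription factor of progenitor cells, ranged from 220872 to 244276 with overlapping genotypes. *Slamf6*, which encodes Ly108, ranged from 23305 to 36665, also with overlap. *Entpd1*, which encodes CD39, was at 10.9, 29.6 and 11.4 in WT and at 4.50, 12.8 and 4.42 in UTX TCD libraries. *Cxcr6* transcripts, in contrast, were present at 12757, 9619 and 13724 normalized counts in WT and were lower at 5286, 5994 and 5695 in UTX TCD libraries (log2 fold change -1.07, SE 0.12, adjusted p = 0.000131 from limma).

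Of the 8 genes, 4 fell, 1 rose and 2 did not pass the test, and *S1pr5* was too low to be tested. *S1pr1*, *S1pr4*, *Klf2* and *Selplg* were lower in UTX TCD cells, at 67.2% to 77.7% of the WT mean. *Cd44* was higher at 113%, a pass that was lost in 6 of 15 other settings (adjusted p from limma, edgeR and DESeq2 up to 0.102). *Ccr7* and *Cd69* had libraries that overlapped between genotypes and did not pass. The test was limma on log2(normalized count + 1) over the 14459 genes with a mean of at least 10, and a gene passed at an adjusted p under 0.05. Over all tested genes, 20.5% passed as lower and 20.2% as higher. Only *S1pr4* was also past an absolute log2 fold change of 0.5 and is here called, a rule that 7.05% of tested genes met as lower and 10.5% as higher. The 3 libraries of each genotype did not overlap for 5 of the 7 tested members, against 51.9% of all tested genes. The median log2 fold change of the 7 was -0.36, beside -0.00 over all tested genes. In sorted bulk samples, a smaller share of cells that express a gene and less RNA per cell cannot be told apart. For any single gene, 3 libraries against 3 allow no exact permutation p below 0.10.

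**Figure D1:**
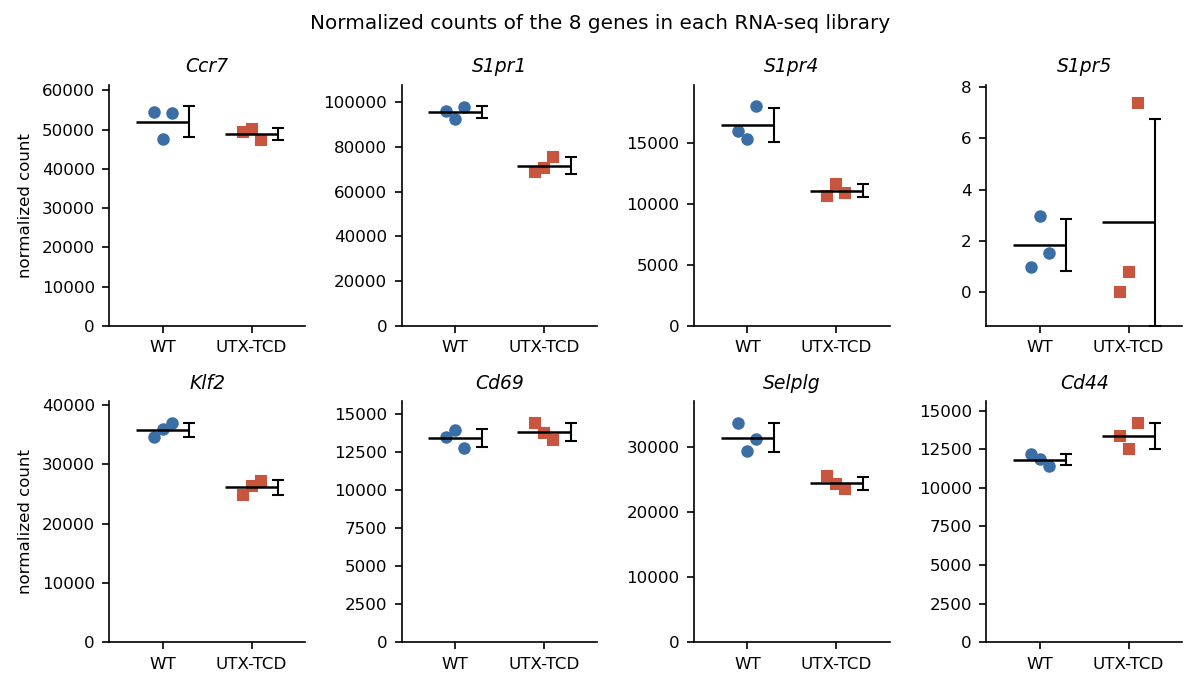
Normalized counts (vertical axis) of the 8 genes in the 3 WT libraries (circles) and the 3 UTX-TCD libraries (squares), with the mean as a horizontal line and the SD as a bar. The UTX-TCD points lie below all WT points for S1pr1, S1pr4, Klf2 and Selplg and above them for Cd44.

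CCR7 is the receptor for the chemokines CCL19 and CCL21. *Ccr7* was counted at 54347, 47478 and 54103 normalized counts in WT and at 49419, 50238 and 47284 in UTX TCD libraries. The ranges overlapped, and WT replicate 2 was as low as the UTX TCD libraries. The difference did not pass (log2 fold change -0.08, SE 0.06, adjusted p = 0.293 from limma). Without WT replicate 2 it did, at -0.15 and an adjusted p of 0.0293, the lowest of all settings tried, which ran up to 0.77.

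S1PR1 is the receptor that carries T cells out of the node. *S1pr1* was counted at 96096, 92650 and 97678 normalized counts in WT and at 68798, 70501 and 75674 in UTX TCD libraries. The genotypes were well apart, with the highest UTX TCD library still far below the lowest WT library. The WT mean was 95475 ± 2571 (SD, n = 3) and the UTX TCD mean 71658 ± 3581 (log2 fold change -0.41, SE 0.05, adjusted p = 0.000225 from limma), and 12.0% of tested genes had a fold change as low or lower.

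S1PR4 is a related S1P receptor found mainly on blood cells. *S1pr4* was counted at 16058, 15400 and 18039 normalized counts in WT and at 10669, 11698 and 10916 in UTX TCD libraries. All UTX TCD libraries were below all WT libraries, and WT replicate 3 was the highest. The WT mean was 16499 ± 1373 (SD, n = 3) and the UTX TCD mean 11094 ± 536.9 (log2 fold change -0.57, SE 0.06, adjusted p = 0.000158 from limma). This was the lowest fold change among the 7 tested members, and 7.92% of tested genes were as low or lower. At a fold limit of 1.5 instead of a log2 fold change of 0.5, *S1pr4* was not called.

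S1PR5 serves exit and circulation in natural killer cells and some memory T cells. *S1pr5* was read 1, 3 and 2 times in the WT libraries and 0, 1 and 10 times in the UTX TCD libraries. UTX TCD replicate 3 alone stood above the floor of 3 reads, so no fold change is given. The other receptors of this family, *S1pr2* and *S1pr3*, share the ligand. *S1pr3* stayed between 0 and 4.80 normalized counts. *S1pr2*, whose receptor slows migration rather than guiding it, was counted at 566.6, 542.0 and 576.6 in WT and at 710.8, 719.9 and 810.9 in UTX TCD libraries. It rose, with every UTX TCD library above every WT library (log2 fold change 0.41, SE 0.10, adjusted p = 0.00824 from limma). *S1pr2* and *S1pr3* were singled out after their values were seen.

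KLF2 is the transcription factor that maintains this program in quiescent T cells. *Klf2* was counted at 34618, 35971 and 36921 normalized counts in WT and at 24797, 26365 and 27237 in UTX TCD libraries. The replicates were tight and the genotypes did not overlap. The WT mean was 35837 ± 1158 (SD, n = 3) and the UTX TCD mean 26133 ± 1236 (log2 fold change -0.46, SE 0.05, adjusted p = 0.000109 from limma). Within each library, *S1pr1* stood at 278, 258 and 265 normalized counts per 100 of *Klf2* in WT and at 277, 267 and 278 in UTX TCD libraries, so the 2 transcripts kept overlapping ratios while both were lower.

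CD69 opposes S1PR1 at the cell surface. *Cd69* was counted at 13520, 13963 and 12786 normalized counts in WT and at 14412, 13751 and 13269 in UTX TCD libraries. The ranges overlapped (log2 fold change 0.04, SE 0.05, adjusted p = 0.547 from limma). With *S1pr1* lower, *Cd69* per 100 *S1pr1* was higher in every UTX TCD library, at 20.9, 19.5 and 17.5, than in WT libraries, at 14.1, 15.1 and 13.1. The same was true of *Ccr7* per 100 *S1pr1*, at 56.6, 51.2 and 55.4 in WT and 71.8, 71.3 and 62.5 in UTX TCD libraries. *S1pr2* per 100 *S1pr1* went from 0.590, 0.585 and 0.590 to 1.03, 1.02 and 1.07. *S1pr4* per 100 *S1pr1* went the other way by a narrow margin, at 16.7, 16.6 and 18.5 in WT and 15.5, 16.6 and 14.4 in UTX TCD libraries. No size factor enters these ratios, which were chosen after the values were seen and compare transcripts only, not surface protein.

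PSGL-1, encoded by *Selplg*, is the main ligand of the selectins once it carries the right glycans, and it also binds CCL19 and CCL21. *Selplg* was counted at 33651, 29331 and 31231 normalized counts in WT and at 25468, 24232 and 23519 in UTX TCD libraries. The UTX TCD libraries were all below the WT libraries. The WT mean was 31404 ± 2165 (SD, n = 3) and the UTX TCD mean 24406 ± 986.0 (log2 fold change -0.36, SE 0.06, adjusted p = 0.00105 from limma).

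CD44 is a hyaluronan receptor that rises on T cells after antigen encounter. *Cd44* was counted at 12194, 11856 and 11441 normalized counts in WT and at 13352, 12481 and 14191 in UTX TCD libraries. The genotypes did not overlap, but the gap between the nearest libraries was small. The difference passed narrowly (log2 fold change 0.17, SE 0.05, adjusted p = 0.0322 from limma). It no longer passed with TMM scaling (adjusted p = 0.053) or in 5 of 6 fits that left out 1 library (0.0529 to 0.102), the exception being the fit without UTX TCD replicate 2 (0.02), and over all settings the adjusted p ran from 0.0135 to 0.102.

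**Figure D2:**
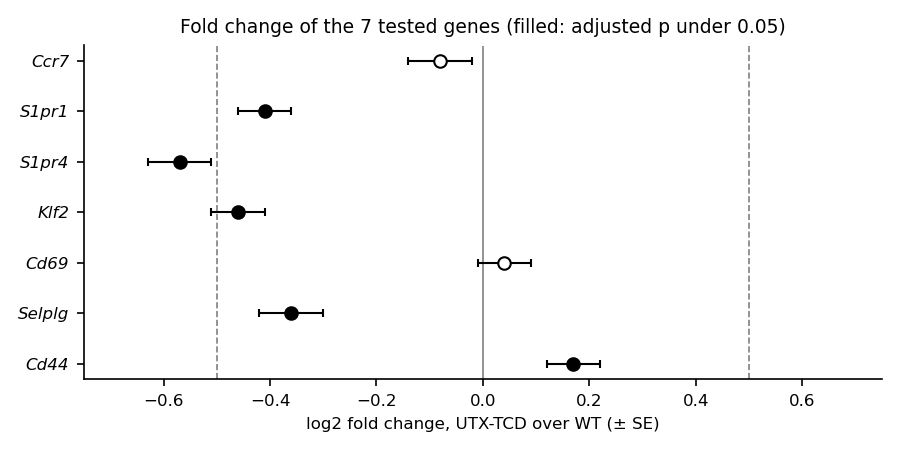
Log2 fold change of UTX-TCD over WT (horizontal axis, bars are SE from limma) for the 7 tested genes, with dashed lines at -0.5 and 0.5 and filled points at an adjusted p under 0.05. S1pr4 at -0.57 is the only point outside the dashed lines, and Ccr7 and Cd69 are open.

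Levels were set beside each other per kilobase of RefSeq exon. In WT cells *S1pr1* was highest at 31500 normalized counts per kb, followed by *Ccr7* at 26300, *Klf2* at 19700, *Selplg* at 11600, *S1pr4* at 6890, *Cd69* at 5450, *Cd44* at 2060 and *S1pr5* at 0.732. The libraries of each of these neighbours did not overlap in WT. In UTX TCD cells *S1pr1*, between 22700 and 25000 per kb, overlapped with *Ccr7*, between 23900 and 25400. *S1pr4*, between 4460 and 4890 per kb, was then below *Cd69*, between 5380 and 5850, the reverse of the WT order. The level of *S1pr1* per kb exceeded that of 98.5% of tested genes, and that of *Cd44* exceeded 70.4%.

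The genes with the most similar profile over the 6 libraries were read as a description, since 6 libraries of 2 genotypes let any gene that differs between them correlate. Among 11694 tested genes with a mean of at least 100, *S1pr4* was nearest to *Polr2e*, *AI467606* and *Atp5mg* (Pearson's r from 0.9985 to 0.9990). *S1pr1* was nearest to *Sgk1*, *Dand5* and *Shld1* (r from 0.9983 to 0.9984). *Sgk1*, which encodes a kinase, went from 34522, 33269 and 36326 to 15105, 15984 and 19846 normalized counts.

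The wider S1P axis holds the receptors, the enzymes and transporters of S1P and the G proteins and arrestins behind the receptors. Of its 24 genes, 20 were tested, and 7 passed as lower, 3 as higher and 10 did not pass. The median log2 fold change was -0.05. For this list and those that follow, 20.5% of all tested genes passed as lower and 20.2% as higher, with a median of -0.00. These lists were chosen with earlier results of these data known, so their counts are a description only. The 3 higher genes were *Gnaq*, *Mfsd2b* and *S1pr2*. *S1pr4* was called lower, and *Gnaq* and *Mfsd2b* were called higher. *Gnaq*, a G protein subunit, went from 1479, 1352 and 1424 to 2731, 2736 and 2840 normalized counts (log2 fold change 0.97, SE 0.06, adjusted p = 7.86e-06 from limma). *Mfsd2b*, an S1P exporter known from red cells and platelets, went from 322.9, 304.1 and 302.0 to 560.1, 506.9 and 425.3 (0.67, SE 0.13, adjusted p = 0.00315 from limma).

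Among homing receptors and ligands, 15 of 19 genes were tested, with 7 lower, 3 higher and 5 not passing, and a median of -0.15. Called lower were *Ccr4*, *Itga4* and *Cxcr4*, and called higher were *Cxcr5* and *Gpr183*. *Cd44* was the remaining higher gene, and *Ccr7*, *Cxcr3*, *Ccr9*, *Itgb1* and *Ackr4* did not pass. *Itga4*, the α4 integrin chain, went from 92438, 107687 and 89870 to 48247, 46934 and 44513 normalized counts (log2 fold change -1.05, SE 0.07, adjusted p = 8.48e-06 from limma). *Cxcr4*, the receptor for CXCL12, went from 85023, 58900 and 79282 to 49428, 45881 and 34749, with the widest spread among the WT libraries (-0.78, SE 0.15, adjusted p = 0.0037 from limma). *Ccr4*, a receptor linked to skin homing, was at 681.5, 682.2 and 731.4 in WT and at 171.0, 161.8 and 98.0 in UTX TCD libraries, a log2 fold change of -2.31. By contrast *Cxcr5*, which guides cells to B cell follicles, went from 2658, 2788 and 2298 to 6429, 6344 and 8593 (1.45, SE 0.12, adjusted p = 2.63e-05 from limma). *Gpr183*, an oxysterol receptor that positions cells at the follicle border, went from 1114, 1377 and 1113 to 2537, 2457 and 3911. The *Gpr183* libraries did not overlap between genotypes. Of the integrin chains that were not called, *Itgb7* was lower at -0.40, *Itgb2* at -0.25 and *Itgal* at -0.15 on the log2 scale, whereas *Itgb1*, at 0.12 with overlapping libraries, did not pass. These 4 chains were singled out after their values were seen. *Itgal* no longer passed with libraries scaled to the same sum (adjusted p = 0.08 from limma) or without WT replicate 1 (0.0698), WT replicate 3 (0.0748), UTX TCD replicate 1 (0.0643) or UTX TCD replicate 2 (0.0578), in a range from 0.00265 to 0.08 over all settings. The ligands *Ccl19* and *Ccl21a*, made by stroma, were at 0 in all libraries.

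The selectin-binding form of PSGL-1 needs fucose and sialic acid added by dedicated enzymes, and CD44 is tied to actin by ezrin, radixin and moesin. In that list 18 of 20 genes were tested, and 9 were lower, 2 higher and 7 did not pass, with a median of -0.14. *Fut7*, the fucosyltransferase that completes selectin ligands on leukocytes, was at 155.5, 116.5 and 175.4 normalized counts in WT and at 18.0, 19.2 and 19.2 in UTX TCD libraries. Every UTX TCD library was far under the WT range, and it was called lower (log2 fold change -2.90, SE 0.24, adjusted p = 2.74e-05 from limma). *St3gal6*, a sialyltransferase, went from 3526, 3385 and 3193 to 1408, 1204 and 1897 (-1.19, SE 0.14, adjusted p = 0.000224 from limma). *Gcnt1*, which builds the branched O-glycan core, was low but higher in every UTX TCD library, from 26.8, 39.5 and 23.6 to 69.7, 72.1 and 89.9 (1.36, SE 0.27, adjusted p = 0.00384 from limma). These 3 genes were the ones called, and *St3gal3* was the other higher gene, at 0.18 and chosen for naming after its value was seen.

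Of the 23 KLF2 regulators and related factors, all tested, 7 were lower, 6 higher and 10 did not pass, with a median of -0.03. The shares over all tested genes were 20.5% lower and 20.2% higher. *Klf6* was called lower, from 16616, 14633 and 16246 to 10457, 10177 and 10207 normalized counts (log2 fold change -0.62, SE 0.05, adjusted p = 3.39e-05 from limma). *Tbx21*, the transcription factor T-bet, was called higher, from 645.9, 876.7 and 588.8 to 1404, 1420 and 1872 (1.16, SE 0.16, adjusted p = 0.00057 from limma). *Mapk7*, which encodes the kinase ERK5 upstream of KLF2, rose by 0.54 and *Stk3* by 0.57 on the log2 scale. *Foxo1*, the best known activator of *Klf2* in T cells, was at 73774, 68351 and 75740 in WT and at 64818, 67388 and 63734 in UTX TCD libraries (log2 fold change -0.15, adjusted p = 0.0391 from limma). It no longer passed in 8 of 15 other settings, with adjusted p from 0.0104 to 0.132, namely with the replicate block (0.0696), with libraries scaled to the same sum (-0.09, adjusted p = 0.115), with no filter (0.0501) and without WT replicate 1 (0.127), WT replicate 3 (0.132), UTX TCD replicate 1 (0.1), UTX TCD replicate 2 (0.0597) and UTX TCD replicate 3 (0.0883). *Klf3*, a related repressor, was lower by a log2 fold change of -0.43 and *Foxp1* higher by 0.33. *Foxo1*, *Klf3* and *Foxp1* were singled out after their values were seen.

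In the migration machinery 14 of 23 tested genes were lower, 3 higher and 6 did not pass, with a median of -0.20. Among all tested genes 20.5% passed as lower and 20.2% as higher. *Dock2*, the activator of RAC in lymphocyte migration, was the only gene called, from WT counts of 133816, 120914 and 137054 to 81972, 83395 and 78013 normalized counts (log2 fold change -0.69, SE 0.06, adjusted p = 2.96e-05 from limma). The higher genes were *Wipf1*, *Myo1g* and *Arhgef1*, at 0.19, 0.25 and 0.16 on the log2 scale, named after their values were seen.

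Retention and residency genes had 15 of 18 tested, with 9 lower, 2 higher and 4 not passing, and a median of -0.50. The 4 that did not pass were *Cd69*, *Rgs1*, *Rgs16* and *Prdm1*. *Itgae*, the CD103 chain that binds E-cadherin, went from 61194, 65163 and 64576 to 14859, 15948 and 14710 normalized counts (log2 fold change -2.07, SE 0.05, adjusted p = 1.88e-08 from limma). *Cdh1*, which encodes E-cadherin, was lower at -2.05, *Rgs2* at -2.64 and *Xcl1* at -1.95. *Bhlhe40*, at 1.44, was called higher, and *Runx3*, at 0.12, passed the test without being called.

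The 18 early activation genes, where *Cd69* also belongs, had 7 higher, 2 lower and 9 not passing, with a median of 0.23. WT replicate 2 was the highest WT library for most of this list, the exceptions being *Jun*, *Dusp2* and *Ifrd1*. For *Egr2* it stood at 4248 normalized counts, against 2750 and 2832 in WT replicates 1 and 3. *Egr2* and *Nr4a3* passed narrowly as higher, with libraries that overlapped between genotypes (adjusted p = 0.048 and 0.0477 from limma). *Nr4a2* went from 260.5, 485.7 and 274.5 to 926.7, 836.8 and 1326 normalized counts (log2 fold change 1.63, SE 0.25, adjusted p = 0.000935 from limma). *Jun* and *Fosb* rose by 0.86 each and *Irf4* by 0.62, whereas *Dusp2* had a log2 fold change of -0.96 and *Fos* of -0.59. *Irf4* no longer passed with DESeq2 (adjusted p = 0.0658) or, in limma, without WT replicate 1 (0.074), WT replicate 3 (0.0662) or UTX TCD replicate 3 (0.0731), in a range from 0.000499 to 0.074.

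Markers of other cells were summed in each library. The 7 B cell genes summed to 3039, 2548 and 2889 normalized counts in WT and to 1509, 1341 and 1548 in UTX TCD libraries. In WT libraries most of this was *Cd79b*, at 2502, 1930 and 2465 against 647.8, 632.6 and 469.6, and without it, which leaves the larger part of the UTX TCD sums, the values were higher in UTX TCD libraries, at 861.5, 708.7 and 1078 against 536.9, 618.0 and 424.0. None of the 7 was at 0 in all libraries, and of 6 tested, *Cd79b* was lower and *Ms4a1* and *Cd22* higher. The 4 CD4 T cell genes summed to 518.1, 412.7 and 490.4 in WT and to 391.4, 382.0 and 368.6 in UTX TCD libraries, with *Foxp3* the most abundant, and *Cd4* and *Zbtb7b* were lower. The 10 stroma and endothelium genes summed to 31940, 29801 and 32086 in WT and to 37952, 38165 and 33923 in UTX TCD libraries, nearly all from *Pecam1*. The level of *Pecam1* per kb exceeded that of 94.6% of tested genes, far above the rest of its list. This sum is therefore not read as an amount of stroma or endothelium. Without *Pecam1* the sums were 766.7, 435.4 and 758.8 in WT and 895.3, 928.9 and 855.1 in UTX TCD libraries, with every UTX TCD library above every WT library. In this list *Ccl19* and *Ccl21a* were at 0, and of 4 tested genes *Pecam1*, *Prox1* and *Col1a2* were higher. *Prox1*, read 5, 1 and 1 times in the WT libraries, met the filter only through the UTX TCD libraries, so no result is drawn from its pass. *Cdh5*, an endothelial gene too low to be tested and picked out after its values were seen, went the other way, with 25, 22 and 13 reads in the WT libraries and 0 in each UTX TCD library. *Pecam1* no longer passed without UTX TCD replicate 2 (0.19, adjusted p = 0.0518 from limma, range 0.00139 to 0.0518). The 9 myeloid genes summed to between 3370 and 5242, mostly *Cst3*, with *Csf1r* and *Cst3* lower and *Cd68* higher among 4 tested. *Csf1r*, read 2, 7 and 11 times in the UTX TCD libraries, met the filter only through the WT libraries, so its pass is likewise not read as a result. *Cst3* no longer passed with libraries scaled to the same sum (adjusted p = 0.0699 from limma) or without WT replicate 1 (0.111), WT replicate 2 (0.0823), UTX TCD replicate 2 (0.105) or UTX TCD replicate 3 (0.1), in a range from 0.00256 to 0.111. The 5 natural killer genes summed to between 116.1 and 233.0, mostly *Tyrobp*. Of 5 erythroid genes 4 were read, at 163.4 to 308.9 in all with *Alas2* the most abundant, and the 7 pancreas genes summed to at most 8.01, with *Ins1* the most abundant and *Amy2a5* and *Ins2* at 0. The part of other cells in the differences of the homing and egress genes was not tested.

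The ATAC-seq table held only peaks that had passed the authors' FDR limit, given here by the authors' mean log2 concentration per genotype, with no spread between libraries and no test. Of the 7 tested members, 6 had at least 1 listed peak, beside 47.6% of all tested genes, and *Cd69* had none. *S1pr5*, not tested, also had listed peaks. Of the 29 peaks, 20 were higher in UTX TCD cells (69.0%), beside 68.8% of all listed peaks, a near equal share. By the authors' annotation 0 were at a promoter, a class that made up 11.0% of the table, while 19 of the 29 lay between genes, where 35.7% of all listed peaks lay, and 9 lay in introns and 1 in an exon. That annotation depends on its start sites, and a *Selplg* peak that it places between genes begins 43 bases upstream of the RefSeq start. The median difference of the authors' means was 0.36, beside 0.49 over all listed peaks.

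*S1pr1* (chr3:115710433-115715055, minus strand, mm10) had 5 peaks, all between genes, of which 3 were lower and 2 higher. The peak at chr3:115695255-115695655, 19.6 kb downstream of the start site and past the gene's end, had an authors' mean log2 concentration of 8.53 in WT and 7.36 in UTX TCD cells. Its difference of -1.17 was the largest among the 29, and 10.2% of all listed peaks had a difference of -1 or lower. The peak at chr3:115758484-115758884, 43.6 kb upstream, went from an authors' mean of 10.86 to 10.25, and that at chr3:115661070-115661470 from 9.34 to 9.06. Both higher peaks lay far upstream, at chr3:115793299-115793699 and chr3:115799298-115799698, with differences of 0.40 and 0.37.

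*Klf2* (chr8:72319062-72321654, plus strand) also had 3 lower and 2 higher peaks. The largest difference was at chr8:72324083-72324483, 5.22 kb downstream of the start site between genes, where the authors' mean went from 9.93 to 9.10. The lower peak at chr8:72303608-72304008 lay 15.3 kb upstream (-0.61), and that at chr8:72358392-72358792 lay within intron 21 of 23 of *Eps15l1* (-0.58). The higher peaks were at chr8:72291134-72291534 (0.42) and chr8:72330768-72331168 (0.34).

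*S1pr4* (chr10:81497745-81500137, minus strand) had a single peak, at chr10:81507967-81508367 in intron 5 of 6 of the neighbouring gene *Gna15*, where the authors' mean went from 12.06 to 11.79. *S1pr5* (chr9:21242917-21248443, minus strand) had 2 higher peaks, and hardly any of its RNA was read. They were at chr9:21244487-21244887 in exon 3 of 3 (0.59) and at chr9:21250076-21250476, 1.83 kb upstream (0.85).

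*Selplg* (chr5:113817798-113832528, minus strand) had 3 higher peaks and 1 lower, and its RNA was lower. Of all listed peaks 68.8% were higher. The higher peaks were at chr5:113824254-113824654 and chr5:113825558-113825958 in its intron (0.25 and 0.39) and at chr5:113832571-113832971, 2.27 kb upstream of the authors' start site and 43 bases upstream of the RefSeq start (0.32). The lower peak, at chr5:113836985-113837385, had a difference of -0.54.

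*Cd44* (chr2:102811141-102901669, minus strand) had 7 peaks, all higher, with differences from 0.31 to 0.74, beside 68.8% higher over all listed peaks. They were 4 in intron 1 of 13 and 3 upstream between genes, the largest at chr2:102909437-102909837. *Ccr7* (chr11:99144199-99155077, minus strand) had 4 higher peaks and 1 lower, and its RNA did not pass the test. The higher ones included chr11:99152646-99153046 in intron 1 of 2 (0.57) and chr11:99186877-99187277, 32.0 kb upstream (0.73), and the lower one was at chr11:99168066-99168466 (-0.58). The others were at chr11:99131465-99131865 (0.31) and chr11:99182594-99182994 (0.57). *Cd69* lies at chr6:129267324-129275375 on the minus strand.

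**Figure D3:**
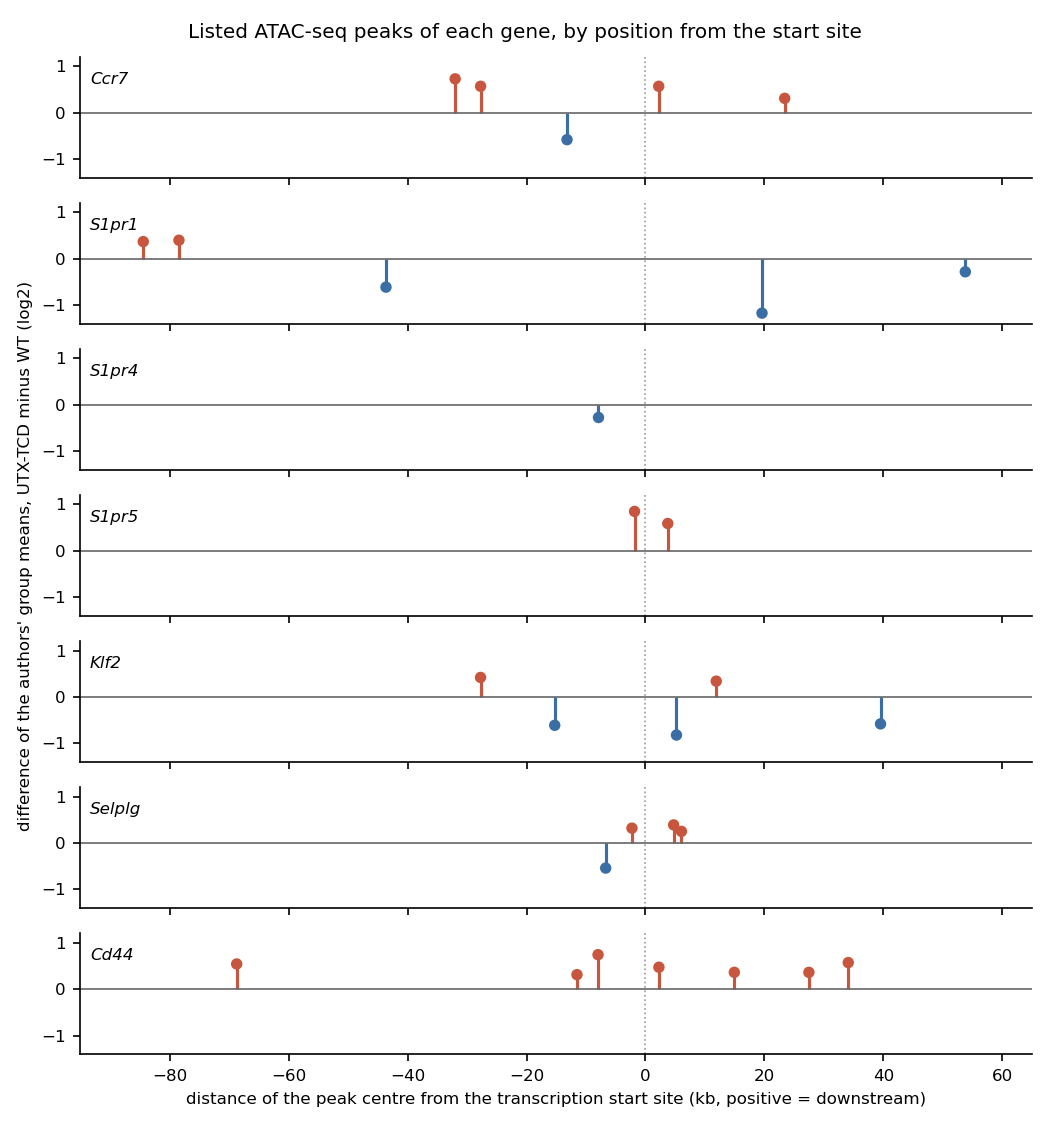
Difference of the authors' mean log2 concentration, UTX-TCD minus WT (vertical axis), for each listed peak by its distance in kb from the start site (horizontal axis, positive is downstream), with higher peaks in red and lower peaks in blue. S1pr1 and Klf2 each have 3 lower peaks, the largest at -1.17, and the 7 Cd44 peaks are all higher.

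The central 201 bases of the peak with the largest difference are shown for the 4 genes that fell, each of them a lower peak, and for *Cd44* as the gene that rose. Bases are those of the plus strand of GRCm38.p6 (mm10) from RefSeq. Capitals mark matches on either strand to CACCC (the core of KLF sites), TGTTTAC (forkhead), CTTTGA (TCF and LEF) and ACCACA (RUNX), which may overlap. Windows of the same length over the 23908 listed peaks on assembled chromosomes held these at 49.2%, 2.69%, 19.1% and 28.2%. Among lower peaks the shares were 54.2%, 3.52%, 20.5% and 36.6%, and among higher peaks 47.0%, 2.32%, 18.5% and 24.4%. The windows are chr3:115695355-115695555 for *S1pr1*, chr8:72324183-72324383 for *Klf2*, chr10:81508067-81508267 for *S1pr4*, chr5:113837085-113837285 for *Selplg* and chr2:102909537-102909737 for *Cd44*.
S1pr1 peak: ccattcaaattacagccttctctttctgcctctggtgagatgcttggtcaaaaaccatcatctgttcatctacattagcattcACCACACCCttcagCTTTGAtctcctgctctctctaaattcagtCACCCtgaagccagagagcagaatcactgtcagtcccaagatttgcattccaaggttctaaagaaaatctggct
Klf2 peak: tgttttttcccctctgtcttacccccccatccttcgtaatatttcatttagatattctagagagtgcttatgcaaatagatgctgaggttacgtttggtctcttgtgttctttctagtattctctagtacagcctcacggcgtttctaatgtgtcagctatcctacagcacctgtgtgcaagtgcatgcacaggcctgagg
S1pr4 peak: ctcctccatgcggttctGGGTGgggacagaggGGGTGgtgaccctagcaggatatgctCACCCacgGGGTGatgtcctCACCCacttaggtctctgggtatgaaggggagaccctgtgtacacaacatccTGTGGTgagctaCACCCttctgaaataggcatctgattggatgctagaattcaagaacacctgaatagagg
Selplg peak: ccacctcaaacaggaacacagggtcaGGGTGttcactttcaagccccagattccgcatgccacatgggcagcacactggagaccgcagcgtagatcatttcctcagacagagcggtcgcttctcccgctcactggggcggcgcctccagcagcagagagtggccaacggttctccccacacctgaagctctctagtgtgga
Cd44 peak: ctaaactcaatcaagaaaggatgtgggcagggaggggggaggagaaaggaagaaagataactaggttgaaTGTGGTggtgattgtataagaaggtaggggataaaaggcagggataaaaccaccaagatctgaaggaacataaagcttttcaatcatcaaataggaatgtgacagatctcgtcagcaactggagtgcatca
The *S1pr1* window held RUNX letters at position 84, overlapping CACCC at position 88, TCF letters at position 98 and a further CACCC at position 128, counted from its left end. The *S1pr4* window held CACCC at 6 positions over both strands and RUNX letters at position 131, the *Selplg* window CACCC at position 27 and the *Cd44* window RUNX letters at position 71. The *Klf2* window held none of the 4 motifs. A match says only that the letters are there.

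Of the 8 genes, 4 matched the RefSeq promoter table of GRCm38.p6, and *Ccr7*, *S1pr1*, *Cd69* and *Selplg* had no entry. The 250 bases before the start site are shown, on the strand of the gene, for the 2 of them that fell, *S1pr4* (chr10:81500138-81500387) and *Klf2* (chr8:72318812-72319061). Capitals mark the same motifs, which 52.0% (CACCC), 3.17% (TGTTTAC), 13.8% (CTTTGA) and 14.0% (ACCACA) of 32851 promoters of this length held.
S1pr4 promoter: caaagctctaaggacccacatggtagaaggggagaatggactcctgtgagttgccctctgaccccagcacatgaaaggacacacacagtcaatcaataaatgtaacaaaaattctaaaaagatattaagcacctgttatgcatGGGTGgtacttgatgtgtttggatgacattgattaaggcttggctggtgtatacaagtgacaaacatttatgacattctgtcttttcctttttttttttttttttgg
Klf2 promoter: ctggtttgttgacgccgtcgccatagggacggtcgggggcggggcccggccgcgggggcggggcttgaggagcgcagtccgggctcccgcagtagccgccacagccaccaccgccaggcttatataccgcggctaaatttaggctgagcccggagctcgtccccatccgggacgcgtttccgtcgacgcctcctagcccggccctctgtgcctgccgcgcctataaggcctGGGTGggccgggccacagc
Each held a single match, to CACCC on the opposite strand, at position 144 in *S1pr4* and position 232 in *Klf2*.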

How the data were processed

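For RNA-seq the authors aligned reads to mm10 with HISAT2 2.2.1, counted them per gene with featureCounts and deposited a signal per gene and library, the count divided by a DESeq2 size factor. Gene annotation and strand setting are not given in the sources used here, and no RefSeq exon of another gene overlaps those of the 8 genes. For ATAC-seq the authors trimmed reads with cutadapt, aligned them with Bowtie2, called peaks with MACS2, compared genotypes with DiffBind and deposited log2 mean concentrations per genotype, with HOMER annotation. Both tables also hold the authors' own comparisons (log2 fold change, its standard error, p-values, FDR), which were not used, except to check that 100% of listed peaks had passed the FDR limit. CUT&Tag data were not used here.

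After a filter at a mean of 10 normalized counts, 1 was added, log2 taken, and a linear model of genotype alone fitted in R 4.3.3 by limma 3.58.1, whose empirical Bayes step used the mean-variance trend. Adjusted p-values are Benjamini-Hochberg over all genes tested. Fold changes on this scale understate those of low genes. Each library's values are multiples of 1 step, its inverse size factor, which gives back the reads (100% whole at a tolerance of 0.01). The step of WT replicate 1, 0.991, is close to 1, but 8.05% of its nonzero values were whole before the division and 100% after it. From the reads, edgeR 4.0.16 and DESeq2 1.42.0 were run as alternatives, after tests on simulated data. The floor of 3 reads covers counting error only. No libraries of a genotype were copies (chi-square per gene at least 12.8). The study gives 3 per group for both assays and calls those of ATAC-seq biological replicates, and the RNA-seq labels do not say whether each library is a separate mouse. The p-values measure the spread between libraries.

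The 8 genes and all lists (S1P axis, homing receptors and ligands, PSGL-1 and CD44 glycan enzymes, KLF2 regulators, migration machinery, retention and residency, early activation, and markers of other cells) were chosen with earlier results of these data known. Named genes were the 8 genes, *Kdm6a*, the gate markers, up to 4 called genes per list and direction with the largest fold changes, the most abundant gene of each marker list, and the 3 genes most correlated with the called member of largest fold change and with the most abundant member. Any other gene named was in a count of 5 or fewer or was singled out, after its values were seen. Alternatives covered the pseudocount, filter, scaling, test, replicate block, fold limit, peak limits and each library left out.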

Additional observations from a re-analysis of the deposited data

How the results depend on the processing

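Under 15 other settings of the pseudocount, filter, scaling, test, block and libraries, *S1pr1* kept its direction with log2 fold changes from -0.45 to -0.35, *Klf2* from -0.49 to -0.39, *Selplg* from -0.41 to -0.30 and *S1pr4* from -0.62 to -0.50, and each passed the test in all 15. *Cd69* ranged from 0.01 to 0.10 and passed in none. *Ccr7* ranged from -0.15 to -0.05 when a library was left out, and passed only without WT replicate 2. *Cd44* was 0.15 with TMM scaling and 0.13 to 0.22 with a library left out, and of these fits passed only without UTX TCD replicate 2. The cause was not tested for either gene. With no fold limit, the calls went from 2538 to 5887 over all genes and from 1 to 5 among the 8 genes, and to 10 in the S1P axis, 10 in homing receptors, 11 in glycan enzymes, 13 in KLF2 regulators and 17 in migration machinery. At a fold change over 1.5 limma called 0 of the 8 genes, since the lowest log2 fold change, -0.57 for *S1pr4*, falls short of that limit at any p, and 2 in KLF2 regulators. These counts follow from the limits themselves. With a library left out, *Foxp3* ranged from -0.06 to 0.16 and *Alas2* from -0.15 to 0.03, neither passing the test. The cause was not tested. edgeR called 2541 genes and DESeq2 2422. Of the 29 peaks, 15 had an absolute difference over 0.5 and 1 over 1, and 11 lay within 10 kb of a start site.

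Deviations of same-numbered libraries from their genotype means correlated at -0.20 to 0.305, against -0.324 to 0.294 for other pairs. The number was therefore not taken as a pairing in the main fit, and a shared litter or day was not tested. With the replicate block, 2474 genes were called, *S1pr4* among them. *S1pr5*, at 10 reads or fewer in each library, was too low for a comparison.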
